A study of Mus musculus with 8 samples.

Results

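The Slc25 genes encode the mitochondrial carriers, the largest of the solute carrier families, and their transcripts were described here in mouse liver. Members were all rows of the deposited expression table whose symbol is Slc25a followed by a number. This gave 42 of the 13703 rows, each of them a single row. They were grouped by the substrate that each carrier is known to move. The values are FPKM, fragments per kilobase of gene, scaled to the library's total.

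The libraries came from liver of mice with a floxed Bicd2 gene, which encodes an adaptor that links cargo to the dynein motor. In the Alb-Cre Bicd2fl/fl group (n = 4) the albumin promoter, active in hepatocytes, drives the Cre recombinase. The Alb-WT Bicd2fl/fl group (n = 4) carries the floxed gene and is labelled wild type for Alb-Cre. All 8 libraries are from the S-100 model of autoimmune hepatitis, in which mice received 2.5 mg of a liver supernatant in complete Freund's adjuvant, injected into the peritoneum each week, 3 times in all. Livers were taken 2 weeks after the last of these injections. No untreated liver was analysed here, and the sources used here give no strain, sex or age of the mice. The labels do not say that the libraries came from separate mice, so the p-values reflect only how far these samples spread, and that spread may be technical. In bulk liver, fewer cells of a type and less RNA per cell cannot be told apart.

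Mitochondrial carriers are small proteins built of repeats that sit, with few exceptions, in the inner mitochondrial membrane. They exchange metabolites, nucleotides and cofactors between matrix and cytosol. In hepatocytes they connect matrix reactions to lipid synthesis, the urea cycle, gluconeogenesis and the redox shuttles, so several of them are abundant in liver.

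Bicd2 stood at 0.705, 0.568, 0.509 and 0.732 FPKM across Alb-Cre replicates 1 to 4 and at 2.46, 3.02, 2.80 and 3.11 FPKM in Alb-WT replicates 1 to 4. Its mean was 4.53-fold lower in Alb-Cre, and the groups did not overlap (limma adjusted p = 7.25e-05). Alb-Cre replicate 4 stood apart from its group over all tested genes. It correlated at 0.958 to 0.96 with Alb-Cre replicates 1 to 3 and at 0.974 to 0.977 with the Alb-WT libraries, whereas Alb-Cre replicates 1 to 3 correlated with each other at 0.994 to 0.996. Among the 38 carriers tested, its FPKM lay outside the range of Alb-Cre replicates 1 to 3 for 33, above it for 16 and below it for 17. Carriers and lists whose calls differ without this library are given both ways. Summed FPKM of 7 hepatocyte markers, led by Alb and Apoa1, was 41979 to 43481 for Alb-Cre replicates 1 to 3, 31075 for replicate 4 and 39777 to 40755 in Alb-WT, which fits the liver label. Of these 7, 1 was lower and none higher with all libraries. Without replicate 4, 3 were higher and 3 lower, beside 15.2% and 46.1% of all genes tested.

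The carriers spanned a wide range of levels, and a handful held most of the family's transcripts. Slc25a5, Slc25a47 and Slc25a39 averaged over 100 FPKM in at least 1 group, and 7 members stayed under 1 FPKM on average in both groups. The 42 members summed to 1042.0, 1030.2, 1063.0 and 944.8 FPKM across Alb-Cre and 958.5, 961.4, 970.3 and 1009.0 FPKM across Alb-WT. The groups overlapped in this sum, since Alb-Cre replicate 4 had the lowest value of all. Its composition did not overlap at the top: Slc25a5, Slc25a47, Slc25a39, Slc25a1 and Slc25a15 together held 61.3% to 62.4% of the Alb-Cre family sum and 55.8% to 58.0% of the Alb-WT one. Slc25a5 alone held 21.3% to 23.1% against 17.7% to 19.0%. The order of the levels was otherwise much alike, with a Spearman rank correlation of 0.99 between the group means over the 42 genes, which share libraries and gene lengths.

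**Figure D1:**
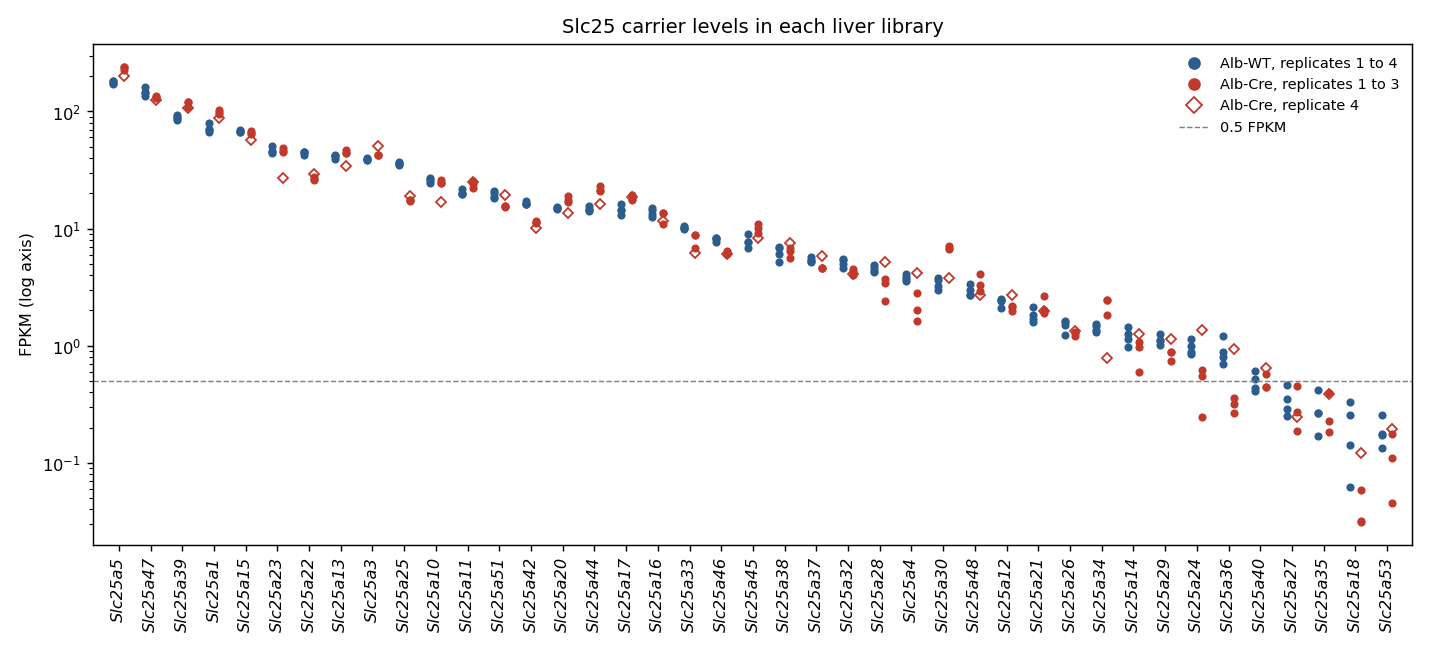
FPKM of 41 Slc25 members (log axis) in every library, ordered by the Alb-WT mean, with Alb-WT libraries as blue dots, Alb-Cre replicates 1 to 3 as red dots and Alb-Cre replicate 4 as an open diamond. The dashed line marks the 0.5 FPKM mean needed for testing, and Slc25a5 stands highest, at 172 to 241 FPKM.

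Of the 38 carriers tested with limma, 7 were higher in Alb-Cre at an adjusted p under 0.05, namely Slc25a1, Slc25a5, Slc25a11, Slc25a17, Slc25a30, Slc25a39 and Slc25a44. Another 6 were lower, namely Slc25a22, Slc25a25, Slc25a32, Slc25a33, Slc25a42 and Slc25a46, and 25 did not pass the test. The carriers higher were 18.4% of those tested, beside 8.48% of all 11077 genes tested. Those lower were 15.8%, beside 23.3% of all genes tested, and those called either way were 34.2%, beside 31.8%. The share of all genes depended on level. Among genes averaging 5 FPKM or more, 16.4% were higher and 20.6% lower. In that fit 6 carriers were higher and 5 lower. The 2 groups did not overlap for 14 carriers (36.8%), beside 30.6% of all genes tested. These 14 were the called carriers other than Slc25a30, together with Slc25a3 and Slc25a47. The median log2 fold change was -0.10 over the carriers and -0.13 over all genes tested. The split of 7 higher and 6 lower became 6 and 8 when the libraries were rescaled to a common FPKM sum, 9 and 3 with median-of-ratios scaling, and 9 and 4 with the trend on gene length removed. Of all genes tested, 5.62% were higher and 27.2% lower at the common sum. These shares were 15.6% and 15.0% with median-of-ratios scaling, and 12.4% and 13.7% with the length trend removed. Fold changes are on the log2(FPKM + 1) scale and ran from -0.97 for Slc25a25 to 0.66 for Slc25a30, so no carrier reached a 2-fold change on that scale.

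Leaving out Alb-Cre replicate 4 raised the counts to 11 higher (28.9%, beside 15.2% of all genes) and 14 lower (36.8%, beside 46.1%). All 13 carriers called with the library were called in the same direction without it. The 12 added were Slc25a3, Slc25a20, Slc25a34 and Slc25a45 among the higher and Slc25a4, Slc25a24, Slc25a28, Slc25a29, Slc25a36, Slc25a37, Slc25a47 and Slc25a51 among the lower. Slc25a1, Slc25a5, Slc25a17 and Slc25a39 (higher) and Slc25a22, Slc25a25 and Slc25a42 (lower) were called the same way under each of the 18 alternative settings, all scalings included.

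**Figure D2:**
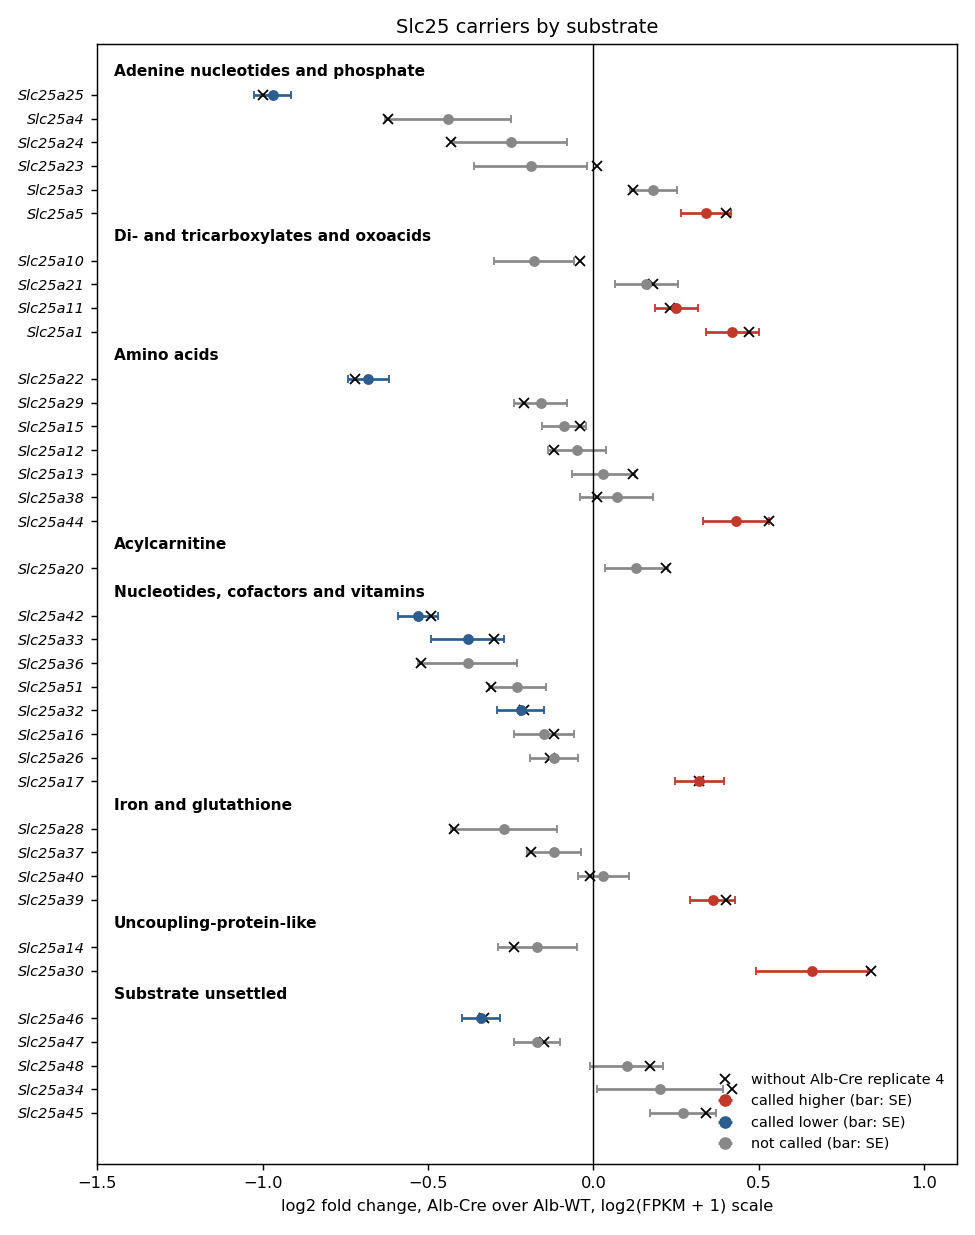
Log2 fold change of 37 tested carriers, Alb-Cre against Alb-WT on the log2(FPKM + 1) scale, as points with bars of 1 standard error, grouped by substrate and coloured red where called higher, blue where called lower and grey otherwise, with black crosses for the values without Alb-Cre replicate 4. Slc25a25 lies lowest at -0.97 and Slc25a30 highest at 0.66.

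Promoter sequences are shown for the carriers with the largest fall and the largest rise on the log2(FPKM + 1) scale, Slc25a25 and Slc25a30, and for the citrate carrier Slc25a1, which rose. Each is the 250 bases before a RefSeq gene start in GRCm38.p6, written 5′ to 3′ along the gene's strand. Capitals mark 4 motifs on either strand: the cAMP response element TGACGTCA, the E-box CACGTG, the CCAAT box and the GC box GGGCGG. A motif on the opposite strand appears as its reverse complement. The Slc25a25 sequence is 1 of the 3 windows listed for that gene. Bases just past the start stood in a reference transcript of the gene for only 1 of these 3 windows, so the printed start is uncertain.
Slc25a25 (chr2:32424067-32424316, minus strand): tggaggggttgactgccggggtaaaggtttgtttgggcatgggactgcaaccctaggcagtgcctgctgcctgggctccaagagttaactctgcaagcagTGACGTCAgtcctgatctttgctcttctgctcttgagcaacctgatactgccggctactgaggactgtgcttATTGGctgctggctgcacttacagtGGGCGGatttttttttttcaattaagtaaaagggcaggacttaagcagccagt
Slc25a1 (chr16:17928220-17928469, minus strand): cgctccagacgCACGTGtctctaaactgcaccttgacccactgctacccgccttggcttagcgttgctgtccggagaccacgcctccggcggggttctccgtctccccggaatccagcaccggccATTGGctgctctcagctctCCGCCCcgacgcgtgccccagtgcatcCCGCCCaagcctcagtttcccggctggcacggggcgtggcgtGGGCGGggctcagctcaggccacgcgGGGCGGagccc
Slc25a30 (chr14:75787038-75787287, minus strand): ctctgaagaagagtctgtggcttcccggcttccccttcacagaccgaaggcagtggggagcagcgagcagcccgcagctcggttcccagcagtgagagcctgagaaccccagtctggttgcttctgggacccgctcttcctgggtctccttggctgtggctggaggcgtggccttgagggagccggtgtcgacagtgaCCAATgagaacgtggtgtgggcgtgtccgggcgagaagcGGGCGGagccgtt
All 3 sequences hold a CCAAT box and at least 1 GC box, of which Slc25a1 has 4. The cAMP response element is in the Slc25a25 sequence alone of these 3, and the E-box in that of Slc25a1 alone.

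RefSeq promoter windows of 300 bases, reaching 50 bases past the start, matched 33 of the 42 members. Members without a window included Slc25a26, Slc25a27, Slc25a32, Slc25a35, Slc25a37, Slc25a44, Slc25a46 and Slc25a51. The GC box occurred in 28 of the 33 (84.8%), in 67.7% of 8846 tested genes with a window and in 35.7% of all 32851 windows. The CCAAT box occurred in 19 (57.6%), in 42.7% of tested genes and in 37.4% of all windows. The GC box was present in all 6 of the higher and all 4 of the lower carriers with a window, so it did not separate them. The E-box was found in Slc25a1, Slc25a13, Slc25a14, Slc25a15, Slc25a33 and Slc25a36 (18.2%, beside 12.0% of tested genes and 7.15% of all windows). The cAMP response element was found in Slc25a25 and Slc25a36 (6.06%, beside 3.54% of tested genes and 1.79% of all windows). The motif of NRF1 (GCGCA and GCGC parted by any base), a regulator of nuclear genes for mitochondria, was found only in Slc25a3 among the 33, in 11.8% of tested genes and in 4.6% of all windows. TATAAA, the TATA box, was found in Slc25a18 and Slc25a21 (6.06%, beside 9.21% of tested genes and 13.6% of all windows). These are letter matches on both strands, and any overlap between motifs was allowed.

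Among carriers of adenine nucleotides and phosphate, the main ADP/ATP carrier rose while a calcium-controlled ATP-Mg/phosphate carrier fell. Of 6 tested members, 1 was higher, 1 lower and 4 did not pass, with a median log2 fold change of -0.22. Slc25a5, ADP/ATP carrier 2, exchanges matrix ATP for cytosolic ADP and was the most abundant carrier in both groups. It stood at 241, 225, 239 and 201 FPKM in Alb-Cre replicates 1 to 4 and at 175, 182, 172 and 183 FPKM in Alb-WT replicates 1 to 4, with no overlap. The means were 227 ± 18.3 and 178 ± 5.74 FPKM (SD, n = 4), a 1.27-fold rise with a log2 fold change of 0.34 ± 0.076 (SE, adjusted p = 0.0125). A pseudogene copy, Slc25a5-ps, is in the reference annotation. How reads that match both were counted is not known, so this level is uncertain.

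Slc25a25, which is controlled by calcium and adjusts the matrix pool of adenine nucleotides, showed the largest fall among the tested carriers on the log2(FPKM + 1) scale. It stood at 17.4, 17.2, 17.7 and 19.1 FPKM across Alb-Cre and 35.1, 35.5, 36.2 and 36.7 FPKM across Alb-WT. All 4 Alb-Cre values, replicate 4 included, lay far below all Alb-WT values. The mean was 2.01-fold lower (17.8 ± 0.862 against 35.9 ± 0.728 FPKM, SD, n = 4), with a log2 fold change of -0.97 ± 0.057 (SE, adjusted p = 4.43e-05). With limma-voom on recovered fragments, which adds no 1 FPKM, its log2 fold change was -1.01 and that of the low carrier Slc25a36 was -1.05 (adjusted p = 2.57e-05 and 0.0427). In the reference annotation 4.82% of the exon length of Slc25a25 overlaps Naif1 on the opposite strand. The rank of Slc25a25 by mean FPKM went from 10 in Alb-WT to 14 in Alb-Cre. Its paralogue Slc25a23, which moves the same substrates, stood at 45.4, 46.1, 49.0 and 26.9 FPKM in Alb-Cre and 44.6 to 50.8 FPKM in Alb-WT and did not pass (adjusted p = 0.413). Alb-Cre replicates 1 to 3 lay within the Alb-WT range, and only replicate 4 was low.

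The phosphate carrier Slc25a3 supplies the phosphate for ATP synthesis. It was at 42.2, 42.2, 42.7 and 50.5 FPKM across Alb-Cre and 38.3, 38.5, 39.0 and 39.8 FPKM across Alb-WT, without overlap but without passing (log2 fold change 0.18 ± 0.071 SE, adjusted p = 0.0775). It was called higher without Alb-Cre replicate 4, its highest library (adjusted p = 0.0281), with median-of-ratios scaling (0.00367) and with the length trend removed (0.00343). Slc25a4, ADP/ATP carrier 1, typical of muscle and heart, was 2.01, 1.62, 2.83 and 4.19 FPKM in Alb-Cre and 3.54 to 4.11 FPKM in Alb-WT. It did not pass with all libraries (-0.44 ± 0.19 SE, adjusted p = 0.0986) and passed without Alb-Cre replicate 4 (-0.62, adjusted p = 0.000804). Slc25a24, the remaining ATP-Mg/phosphate carrier of the group, ranged from 0.244 to 1.35 FPKM over the 8 libraries.

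Carriers of di- and tricarboxylates and oxoacids included 2 that rose and none that fell among 4 tested, with a median log2 fold change of 0.20. Slc25a1 exports citrate, the carbon source for cytosolic acetyl-CoA and fatty acid synthesis. It stood at 95.7, 99.5, 103 and 87.4 FPKM across Alb-Cre and 66.9, 70.8, 68.8 and 80.5 FPKM across Alb-WT. The lowest Alb-Cre value, that of replicate 4, still exceeded the highest Alb-WT value. The means were 96.5 ± 6.77 and 71.8 ± 6.02 FPKM (SD, n = 4), a 1.34-fold rise with a log2 fold change of 0.42 ± 0.081 (SE, adjusted p = 0.00766).

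Slc25a11, the oxoglutarate/malate carrier of the malate-aspartate shuttle, rose less. It was 22.4, 23.9, 25.7 and 24.9 FPKM across Alb-Cre and 19.6, 19.7, 20.1 and 21.6 FPKM across Alb-WT, again without overlap. Its log2 fold change was 0.25 ± 0.065 (SE, adjusted p = 0.0226). The call was lost when Alb-Cre replicate 3 or Alb-WT replicate 1, 2 or 3 was left out (adjusted p 0.0625 to 0.0673) and after rescaling to a common FPKM sum (0.13). In the reference annotation 8.92% of its exon length overlaps Rnf167 on the opposite strand, and the strand setting of the counting is not given. The dicarboxylate carrier Slc25a10 (16.9 to 25.9 FPKM in Alb-Cre, 24.6 to 27.1 in Alb-WT) and the oxodicarboxylate carrier Slc25a21 (1.60 to 2.63 FPKM over all libraries) did not pass.

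Enzymes that work beside these carriers were set against them from lists of partner genes. Of 6 genes for making and using exported citrate, 3 were higher and none lower. Acly, which splits cytosolic citrate, stood at 70.4, 66.4, 71.5 and 43.8 FPKM across Alb-Cre and 29.1, 28.5, 29.4 and 29.5 FPKM across Alb-WT (log2 fold change 1.06, adjusted p = 0.00185). Me1, the cytosolic malic enzyme, rose by 1.45 (adjusted p = 0.00352) and Acss2, which makes cytosolic acetyl-CoA from acetate, by 1.38 (adjusted p = 0.0133). The rises of these 3 enzymes were much smaller in Alb-Cre replicate 4, where Acss2 stood at 10.5 FPKM against 30.6 to 31.7 in the other Alb-Cre libraries and 8.38 to 8.79 in Alb-WT. Of 4 enzymes of the malate-aspartate shuttle, 3 were higher and none lower. Got2, the matrix aspartate aminotransferase, was 84.5 ± 3.73 FPKM in Alb-Cre and 64.0 ± 1.33 FPKM in Alb-WT (SD, n = 4, adjusted p = 0.00256). The malate dehydrogenases Mdh2, of the matrix, and Mdh1, of the cytosol, rose by 0.38 and 0.42 on the log2 scale (adjusted p = 0.0104 and 0.0121). Got1, the cytosolic aminotransferase, was 131 ± 15.0 against 154 ± 2.85 FPKM and did not pass (-0.24, adjusted p = 0.0626), but was called lower without Alb-Cre replicate 4 (-0.16, adjusted p = 0.0111), with quantile normalization (0.00645) and at a common FPKM sum (0.0121). Without replicate 4 the citrate list had 5 higher and none lower, and the shuttle list 3 higher and 1 lower. Over all genes tested, 8.48% were higher and 23.3% lower with all libraries, and 15.2% and 46.1% without replicate 4.

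Among amino acid carriers, glutamate carrier 1 fell and the branched-chain amino acid carrier rose. Of 8 members 7 were tested, and 1 was higher, 1 lower and 5 did not pass, with a median log2 fold change of -0.05. Slc25a22, glutamate carrier 1, brings glutamate into the matrix, where it feeds ammonia release and acetylglutamate synthesis. It stood at 26.5, 25.8, 27.5 and 29.5 FPKM across Alb-Cre and 44.7, 42.7, 45.4 and 45.0 FPKM across Alb-WT. All 4 Alb-Cre libraries were low, with a wide gap to Alb-WT. The mean was 1.63-fold lower (27.3 ± 1.57 against 44.4 ± 1.21 FPKM, SD, n = 4), with a log2 fold change of -0.68 ± 0.061 (SE, adjusted p = 0.000265).

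Slc25a44, a carrier of branched-chain amino acids, stood at 20.9, 21.4, 23.0 and 16.1 FPKM across Alb-Cre and 14.2, 14.5, 15.5 and 14.8 FPKM across Alb-WT. Replicate 4 was the lowest Alb-Cre library and lay just above the Alb-WT range. The log2 fold change was 0.43 ± 0.10 (SE, adjusted p = 0.0166), and omitting Alb-WT replicate 1 ended the call (adjusted p = 0.0509).

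Slc25a15, the ornithine/citrulline carrier of the urea cycle, was the most abundant amino acid carrier. It was 67.8, 65.0, 64.7 and 57.1 FPKM across Alb-Cre and 68.9, 66.3, 67.3 and 67.7 FPKM across Alb-WT, so the groups overlapped. The test was not passed (-0.09 ± 0.067 SE, adjusted p = 0.331), but the gene was called lower with quantile normalization (-0.21, 0.0324) and at a common FPKM sum (-0.17, 0.0492), while median-of-ratios scaling turned its sign (0.08). Citrin, Slc25a13, the aspartate/glutamate carrier of liver, ranged from 34.5 to 46.8 FPKM over both groups and did not pass either (adjusted p = 0.824). Of 6 urea cycle enzymes tested, Asl, argininosuccinate lyase, was the single call with all libraries, at 88.4 ± 6.69 against 134 ± 3.42 FPKM (SD, n = 4, log2 fold change -0.60, adjusted p = 0.000912). Without Alb-Cre replicate 4, Otc, ornithine carbamoyltransferase, was also called, higher by 0.33 (adjusted p = 0.000114, named after its value was seen). Slc25a12, Slc25a29 and the glycine carrier Slc25a38 did not pass, and the low glutamate carrier 2, Slc25a18, at 0.0313 to 0.33 FPKM, was not tested.

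The acylcarnitine carrier Slc25a20 brings fatty acyl groups into the matrix for oxidation. It stood at 17.4, 16.8, 19.0 and 13.6 FPKM across Alb-Cre and 15.0, 14.8, 15.0 and 15.3 FPKM across Alb-WT. Alb-Cre replicates 1 to 3 lay above all Alb-WT libraries and replicate 4 below them. The test was not passed with all libraries (log2 fold change 0.13 ± 0.094 SE, adjusted p = 0.286) and was passed without replicate 4 (0.22, adjusted p = 0.00453). None of the 4 other carnitine shuttle genes, Cpt1a, Cpt2, Crat and Slc22a5, passed with all libraries; without replicate 4, Cpt2 was higher and Cpt1a lower (log2 fold change 0.43 and -0.15, named after their values were seen).

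In the group of nucleotide, cofactor and vitamin carriers, the matrix coenzyme A carrier fell and a peroxisomal cofactor carrier rose. Of 9 tested, 1 was higher, 3 were lower and 5 did not pass, with a median log2 fold change of -0.22. Over all genes tested, 23.3% were lower. Slc25a42, which brings coenzyme A into the matrix, stood at 11.3, 11.2, 11.7 and 10.2 FPKM across Alb-Cre and 16.2, 16.1, 17.2 and 16.3 FPKM across Alb-WT. All Alb-Cre libraries were low, and the groups did not overlap. The mean was 1.48-fold lower, with a log2 fold change of -0.53 ± 0.061 (SE, adjusted p = 0.000845).

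Slc25a17, a peroxisomal carrier of coenzyme A, FAD and NAD, moved the other way. It stood at 17.8, 19.3, 17.7 and 18.7 FPKM across Alb-Cre and 13.0, 16.2, 14.5 and 14.3 FPKM across Alb-WT. The groups did not overlap, and replicate 4 lay within the range of the other Alb-Cre libraries. The log2 fold change was 0.32 ± 0.074 (SE, adjusted p = 0.0144).

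The pyrimidine nucleotide carrier Slc25a33 supplies nucleotides for mitochondrial DNA and RNA. It was 8.73, 6.85, 8.80 and 6.23 FPKM across Alb-Cre and 9.85, 10.6, 10.2 and 10.1 FPKM across Alb-WT, without overlap (-0.38 ± 0.11 SE, adjusted p = 0.0267). The fall was not called with median-of-ratios scaling (adjusted p = 0.219), with quantile normalization (0.126) or without Alb-Cre replicate 2 or any single Alb-WT replicate (0.0584 to 0.0693). In addition 14.9% of its exon length overlaps Gm13068 on the opposite strand.

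Slc25a32, the folate and FAD carrier, was 4.52, 4.31, 4.04 and 4.11 FPKM across Alb-Cre and 5.49, 5.02, 5.39 and 4.59 FPKM across Alb-WT. These groups came close without overlapping (-0.22 ± 0.071 SE, adjusted p = 0.0428). Its call was the least firm of the 13, being lost in 11 of the alternative settings, among them the omission of Alb-Cre replicate 1, 2 or 3 or Alb-WT replicate 1, 2 or 3 (adjusted p 0.0674 to 0.114) and all scalings except the common FPKM sum (0.456 to 0.596).

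Slc25a51, which brings NAD into the matrix, was the most abundant of these carriers in Alb-WT. It stood at 15.5, 15.6, 15.4 and 19.2 FPKM across Alb-Cre and 20.9, 18.5, 20.0 and 18.2 FPKM across Alb-WT. Alb-Cre replicates 1 to 3 lay below all Alb-WT libraries and replicate 4 among them. The test was not passed with all libraries (-0.23 ± 0.086 SE, adjusted p = 0.0664) and was passed without replicate 4 (-0.31, adjusted p = 0.00109). Slc25a36, pyrimidine nucleotide carrier 2, showed the same order at a low level, with 0.267, 0.358, 0.318 and 0.940 FPKM in Alb-Cre and 0.703 to 1.21 FPKM in Alb-WT. On the log2(FPKM + 1) scale its log2 fold change was -0.38 (adjusted p = 0.0702) with replicate 4 and -0.52 (adjusted p = 0.000634) without it. Slc25a16 and Slc25a26, linked to coenzyme A and S-adenosylmethionine, did not pass.

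Of 10 cofactor genes tested as partners, 1 was higher and 3 were lower, and 3 and 4 without Alb-Cre replicate 4. Beside them, 8.48% of all genes tested were higher and 23.3% lower, and 15.2% and 46.1% without that library. Pank3, a pantothenate kinase of coenzyme A synthesis, had a log2 fold change of -0.29 (adjusted p = 0.0158), and Nmnat3, a mitochondrial enzyme of NAD synthesis, one of -0.23 (adjusted p = 0.0266). The 1 higher gene was Pank1, another pantothenate kinase, with a log2 fold change of 0.43 (limma adjusted p = 0.0391, named after its value was seen). Pank1 was 26.4 to 27.6 FPKM in Alb-Cre replicates 1 to 3, 17.4 FPKM in replicate 4 and 17.4 to 18.4 FPKM in Alb-WT. Its call was lost with quantile normalization (adjusted p = 0.0693). Mat1a, the liver enzyme of S-adenosylmethionine synthesis, was 661 to 671 FPKM in Alb-Cre replicates 1 to 3, 1079 FPKM in replicate 4 and 1027 to 1095 FPKM in Alb-WT (-0.51, adjusted p = 0.0390). The calls of Pank3, Nmnat3 and Mat1a were all lost with median-of-ratios scaling and with quantile normalization, and those of Pank3 and Nmnat3 also with the length trend removed. Pank3 was also lost without Alb-WT replicate 3, and Nmnat3 and Mat1a without any single library other than Alb-Cre replicate 4.

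Of the iron and glutathione carriers, the glutathione carrier rose and neither mitoferrin passed. The group had 4 tested members, 1 of them higher and none lower, with a median log2 fold change of -0.04. Slc25a39 imports glutathione into mitochondria and ranked 3 in the family in both groups. It stood at 109.8, 120.0, 121 and 107 FPKM across Alb-Cre and 84.0, 89.6, 88.4 and 92.9 FPKM across Alb-WT. All Alb-Cre libraries were high, replicate 4 included. The means were 115 ± 7.20 and 88.7 ± 3.67 FPKM (SD, n = 4), a 1.29-fold rise with a log2 fold change of 0.36 ± 0.068 (SE, adjusted p = 0.00689). None of the 4 genes of glutathione synthesis and reduction tested beside it passed in the main test with all libraries. Without replicate 4, 3 of them (Gclc, Gss and Gsr) were lower, beside 46.1% of all genes. With all libraries, Gclc was called lower at a common FPKM sum (adjusted p = 0.0391) and with quantile normalization (0.0475). Gsr was called lower with quantile normalization (0.0446) and Gss with limma-voom (0.0412). Median-of-ratios scaling called none of these 3 (adjusted p 0.0647 to 0.633). Its relative Slc25a40 stayed at 0.412 to 0.646 FPKM.

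The mitoferrins bring iron into the matrix, Slc25a37 mainly in developing red cells and Slc25a28 more widely. Slc25a37 was 4.63, 4.56, 4.61 and 5.78 FPKM across Alb-Cre and 5.35, 5.76, 5.16 and 5.26 FPKM across Alb-WT, and Slc25a28 was 3.42, 2.42, 3.68 and 5.18 FPKM against 4.27 to 4.87 FPKM. Alb-Cre replicates 1 to 3 were below all Alb-WT libraries for both genes, and replicate 4 was above them. Neither passed with all libraries (adjusted p = 0.278 and 0.199) and both were lower without replicate 4 (log2 fold change -0.19 and -0.42, adjusted p = 0.0166 and 0.00498). Erythroid markers, of which 3 of 4 tested fell, summed to 129 to 177 FPKM in Alb-Cre replicates 1 to 3, 74.1 FPKM in replicate 4 and 358 to 463 FPKM in Alb-WT, led by Hba-a1, and Hbb-bs and Epb42 of that list had no row. Over all genes tested, 23.3% were lower. The part of red cells in the mitoferrin values was not tested. Among 8 iron and heme genes 1 was higher and 2 lower, and 3 and 2 without replicate 4. Beside them, 8.48% of all genes tested were higher and 23.3% lower, and 15.2% and 46.1% without that library. Alas1, the first enzyme of heme synthesis, rose by 0.43 (adjusted p = 0.00345). Heme oxygenase Hmox1 was 9.25 to 9.86 FPKM in Alb-Cre replicates 1 to 3, 31.5 FPKM in replicate 4 and 32.5 to 34.9 FPKM in Alb-WT (log2 fold change -1.32, adjusted p = 0.0213). Ferrochelatase, Fech, fell by 0.23 (adjusted p = 0.0368). The calls of Hmox1 and Fech were both lost when any of Alb-Cre replicates 1 to 3 or any Alb-WT library was left out, and that of Fech also with median-of-ratios scaling, quantile normalization and the length trend removed.

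Of the carriers like uncoupling proteins, Slc25a30, the kidney mitochondrial carrier, showed the largest rise of the family, in 3 of 4 Alb-Cre libraries. It stood at 6.72, 6.87, 7.08 and 3.80 FPKM across Alb-Cre and 3.80, 3.22, 3.66 and 2.98 FPKM across Alb-WT. Replicate 4 lay within the Alb-WT range, so the groups overlapped. The means were 6.12 ± 1.55 and 3.41 ± 0.383 FPKM (SD, n = 4), a 1.79-fold rise with a log2 fold change of 0.66 ± 0.17 (SE, adjusted p = 0.0192). Without replicate 4 the log2 fold change was 0.84 (adjusted p = 5.42e-06). The call was lost without Alb-Cre replicate 1, 2 or 3 or Alb-WT replicate 2 or 4 (adjusted p 0.0521 to 0.0577). Slc25a14 ranged from 0.592 to 1.45 FPKM and did not pass, and Slc25a27 was too low to test.

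Uncoupling protein 2, Ucp2, is a carrier of the same family under another symbol, known from immune cells and Kupffer cells. It was 4.62, 4.81, 4.57 and 14.1 FPKM across Alb-Cre and 12.0, 13.2, 12.0 and 13.3 FPKM across Alb-WT, and fell by 0.91 on the log2 scale (adjusted p = 0.0453). Alb-Cre replicates 1 to 3 were low and replicate 4 was the highest of all 8, and the call was lost when any library but Alb-Cre replicate 4 was left out or the length trend removed. Of the 3 carriers tested under other symbols, Ucp2 was the single call with all libraries. Without replicate 4, Mtch2 was also called, higher by 0.15 (limma adjusted p = 0.0253, named after its value was seen). Kupffer cell markers, of which all 6 tested fell, summed to 124 to 136 FPKM in Alb-Cre replicates 1 to 3, 385 FPKM in replicate 4 and 442 to 471 FPKM in Alb-WT, led by Cd5l and Clec4f. Neutrophil markers, of which all 4 tested fell, summed to 6.77 to 7.09, 85.9 and 262 to 324 FPKM in the same order, led by S100a9, and Mpo, Ngp, Camp and Ltf of that list had no row. Markers of T and B cells, led by Cd79a and Cd4, summed to 1.12 to 1.69, 7.38 and 3.57 to 5.30 FPKM, with none of 3 called with all libraries and all 3 lower without replicate 4. Markers of stellate cells and fibroblasts, led by Dcn, summed to 33.2 to 35.8, 48.8 and 59.1 to 62.5 FPKM, with 4 of 7 lower. Those of bile duct cells, led by Spp1, summed to 36.2 to 41.0, 61.8 and 79.0 to 92.2 FPKM, with all 4 tested lower, and those of endothelium, led by Clec4g, to 34.2 to 36.2, 28.6 and 36.9 to 40.4 FPKM, with 3 of 6 lower. Without replicate 4, 6 of the 7 stellate cell and fibroblast markers were lower, and of the 6 endothelial markers 4 were lower and 1 higher. Over all genes tested, 23.3% were lower with all libraries and 46.1% without replicate 4. The part of these cell types in Ucp2 or in the carriers was not tested.

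Among carriers whose substrate is unsettled, 1 of 5 tested fell and none rose, with a median log2 fold change of 0.10. Slc25a47, a carrier known mainly from liver, ranked 2 in both groups. It stood at 136, 131, 132 and 126 FPKM across Alb-Cre and 148, 136, 145 and 161 FPKM across Alb-WT. The groups just failed to overlap, and the test was not passed (-0.17 ± 0.069 SE, adjusted p = 0.0878). It was called lower without Alb-Cre replicate 4 (adjusted p = 0.0387), with quantile normalization (-0.30, 0.0109) and at a common FPKM sum (-0.25, 0.0271), while median-of-ratios scaling gave an adjusted p of 0.99.

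Slc25a46 is a family member of the outer membrane, linked to mitochondrial shape rather than to transport. It was 6.41, 6.26, 6.05 and 6.03 FPKM across Alb-Cre and 8.10, 8.38, 7.68 and 8.31 FPKM across Alb-WT. The groups were well apart, with a log2 fold change of -0.34 ± 0.058 (SE, adjusted p = 0.00466). In the reference annotation 7.06% of its exon length overlaps B930094E09Rik on the opposite strand. The call was lost with median-of-ratios scaling (adjusted p = 0.0830) and with the trend on gene length removed (0.0847). Slc25a45 and Slc25a34 did not pass with all libraries and were higher without replicate 4 (log2 fold change 0.34 and 0.42), Slc25a45 also with median-of-ratios scaling (0.42, adjusted p = 0.0371), and Slc25a48 did not pass in either fit. Slc25a35 and Slc25a53 were too low to test.

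**Figure D3:**
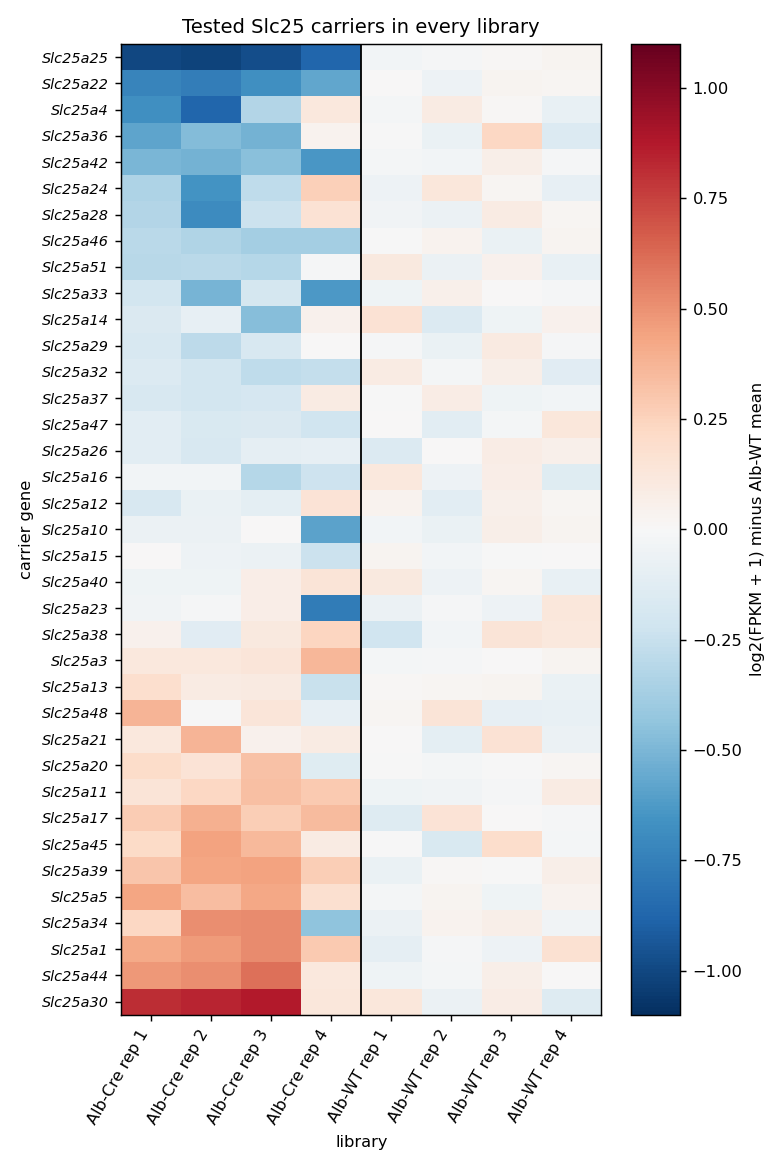
Difference of each library's log2(FPKM + 1) from the Alb-WT mean for 37 tested carriers (rows, ordered by the mean of Alb-Cre replicates 1 to 3) in the 8 libraries (columns), with red above and blue below the Alb-WT mean. Slc25a25, Slc25a22 and Slc25a42 are blue in all 4 Alb-Cre libraries, whereas Slc25a30 is red in replicates 1 to 3 and close to Alb-WT in replicate 4.

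Pairs of carriers with the same or related substrates were compared as log2 ratios of their FPKM within each library, which cancels the scaling of the library. Of 8 pairs, 2 had ratios that did not overlap between the groups, and none passed after adjustment over the 8 (the exact permutation test of 4 against 4 libraries cannot go below p = 0.0286, two-sided). Slc25a23 over Slc25a25 was 1.38, 1.42, 1.47 and 0.49 across Alb-Cre and 0.34, 0.39, 0.31 and 0.47 across Alb-WT, a difference of 0.82 (exact permutation p = 0.0286, adjusted 0.114). Replicate 4 lay only just above the Alb-WT range, since Slc25a23 was low there. Slc25a16 over Slc25a42, both linked to coenzyme A, was 0.26, 0.27, -0.10 and 0.18 against -0.11, -0.28, -0.24 and -0.38, a difference of 0.41 (exact permutation p = 0.0286, adjusted 0.114). These ratios came close between Alb-Cre replicate 3 and Alb-WT replicate 1.

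Slc25a4 over Slc25a5, the muscle over the general ADP/ATP carrier, was -6.91, -7.12, -6.40 and -5.59 across Alb-Cre and -5.55, -5.47, -5.49 and -5.69 across Alb-WT. Replicate 4 fell among the Alb-WT values, and the difference of -0.95 had an exact permutation p of 0.0571 (adjusted 0.152). The ratios of Slc25a12 to Slc25a13, Slc25a18 to Slc25a22, Slc25a37 to Slc25a28, Slc25a33 to Slc25a36 and Slc25a40 to Slc25a39 differed by -0.10, -0.98, 0.21, 0.67 and -0.28 (exact permutation p 0.229 to 0.657).

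**Figure D4:**
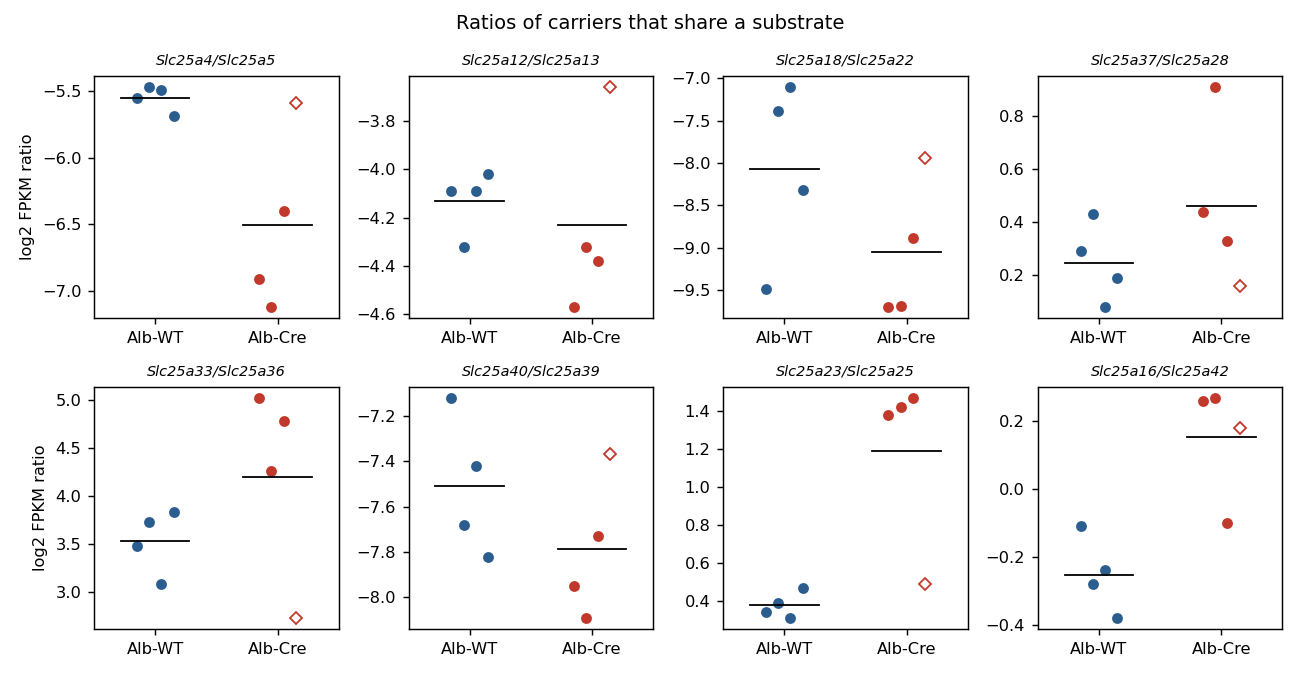
Log2 ratio of FPKM for 8 pairs of related carriers, a panel for each pair, with a point for every library of the Alb-WT and Alb-Cre groups and a black line at each group's mean. The Slc25a23 to Slc25a25 ratio is 1.38 to 1.47 for Alb-Cre replicates 1 to 3 but 0.49 for replicate 4, against 0.31 to 0.47 in Alb-WT.

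Over all partner lists, 78 genes were tested, of which 13 were higher (16.7%, beside 8.48% of all genes), 9 lower (11.5%, beside 23.3%) and 56 not called. Without Alb-Cre replicate 4 these counts were 26 higher (33.3%, beside 15.2% of all genes) and 16 lower (20.5%, beside 46.1%). With all libraries, among all genes averaging 5 FPKM or more, 16.4% were higher and 20.6% lower. In that fit 14 partner genes were higher and 7 lower.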

How the data were processed

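Bulk liver RNA was sequenced in 8 libraries. Sample titles gave each library's group and number. The authors deposited 1 table of FPKM values. The submitters' processing notes name HISAT2 2.0.5 and both a mouse and a human build, without roles; the counting tool, annotation and strand setting are not stated there or elsewhere in the sources used here. The sample descriptions also name a single-cell platform, which the table's single column for each library does not match. No value was 0 (the smallest was 0.00167 FPKM), so genes without fragments are not analysed here, and Slc25a2, Slc25a31, Slc25a41, Slc25a43, Slc25a52 and Slc25a54 had no row. For 13702 rows (99.99%) the steps between values corresponded to whole fragments within 1e-06. The totals behind the FPKM were 32793770 to 39157210 fragments in the Alb-Cre and 33278910 to 38882640 in the Alb-WT libraries. Tested carriers had very different depth (128 to 386 fragments for Slc25a4, 9400 to 14075 for Slc25a5), and levels of few fragments are less precise. Some had fewer still, with 28 to 182 fragments for Slc25a24 and 84 to 385 for Slc25a36.

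The test was limma 3.58.1 (R 4.3.3) on log2(FPKM + 1), with empirical Bayes, an intensity trend and no term besides genotype, and covered the 11077 rows averaging 0.5 FPKM or more. The threshold was a Benjamini-Hochberg adjusted p of 0.05 over all of them. Ratios of paralogues were tested by exact permutation over 70 assignments, two-sided, adjusted over 8 pairs. All tests were checked on simulated data. The simulated libraries for limma held far fewer changed genes and none that stood apart as Alb-Cre replicate 4 does, so that case was not covered. Alternatives were other pseudocounts, filters, scalings, limma-voom on the recovered fragments, a replicate block and leaving out each library.

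Members are named in their substrate groups, except 1 that enters the counts and is not reported here by name or drawn. Values in every library are given for members called that average 1 FPKM or more and whose groups do not overlap, and for the most abundant member of each substrate group; a few others shown in full were chosen after their values were seen. Of each partner list, up to 3 called genes with the smallest p are named. The members and lists were chosen with earlier results of these data known. Promoters are from RefSeq (GRCm38.p6); other coordinates are not printed, since the reference differs from the listed mouse build.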

Additional observations from a re-analysis of the deposited data

Results flagged for a closer look

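Within groups of 4 libraries, 8 of 84 sets of carrier values had 1 library far from the other 3 by Dixon's test, where chance gives about 1 in 20. Alb-Cre replicate 4 was that library in 7 of them. It was high for Slc25a3 (50.5 FPKM), Slc25a36 (0.94 FPKM), Slc25a37 (5.78 FPKM) and Slc25a51 (19.2 FPKM). It was low for Slc25a10 (16.9 FPKM), Slc25a23 (26.9 FPKM) and Slc25a30 (3.80 FPKM). The remaining set was Slc25a13 in Alb-WT, where replicate 4 was low at 39.0 FPKM against 41.6 to 42.1 FPKM.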

How the results depend on the processing

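The 7 higher and 6 lower carriers became 6 to 9 and 3 to 8 under other pseudocounts, filters, scalings and the fragment model, with 3 lower under median-of-ratios scaling; leaving out single libraries gave 5 to 11 higher and 4 to 14 lower, the most without Alb-Cre replicate 4. The 13 higher partner genes became 28 with median-of-ratios scaling and 21 with the length trend removed, and 8 to 26 with single libraries left out (8 without Alb-Cre replicate 1 or Alb-WT replicate 1 or 3). The 9 lower became 5 under both of those settings and 2 to 16 with libraries left out. The shares of all genes tested moved too, from 8.48% higher and 23.3% lower in the main fit. They were 15.6% and 15.0% with median-of-ratios scaling, and 12.4% and 13.7% with the length trend removed. With single libraries left out they ran from 4.93% to 15.2% higher and from 10.9% to 46.1% lower. The causes were not tested. The carriers' median log2 fold change of -0.10 was -0.08 without a filter, -0.17 at a common FPKM sum, 0.04 with median-of-ratios, 0.05 with quantile normalization and 0.05 with the length trend removed, and -0.11 to -0.08 with libraries left out; the median of all genes moved from -0.13 to -0.19, -0.01, 0.02 and -0.01 under these 4 scalings. The share of lower genes among all calls was 73.3%, and 82.9%, 49.0%, 48.6% and 52.5% under them.

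Same-numbered libraries did not deviate together (correlations -0.10 to 0.01, and 0 of 8 libraries correlated best with its own number). A replicate block gave 6 higher and 4 lower carriers, and 10 higher and 4 lower partner genes. Of all genes tested it called 5.53% higher and 14.7% lower.

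Signs turned only for values not called. Median-of-ratios scaling gave 0.06 for Slc25a12, 0.08 for Slc25a15, 0.01 for Slc25a16 and 0.02 for Slc25a37. Quantile normalization gave 0.16 for Slc25a12, -0.05 for Slc25a13, 0.04 for Slc25a14, 0.09 for Slc25a26, 0.05 for Slc25a29 and 0.03 for Slc25a37. Removing the length trend gave 0.13 for Slc25a12, 0.07 for Slc25a15, 0.01 for Slc25a26, 0.04 for Slc25a37 and 0.02 for the Slc25a12 to Slc25a13 ratio. The common sum gave -0.06 for Slc25a13 and -0.01 for Slc25a38. With single libraries left out, Slc25a13 ran from -0.02 (without Alb-Cre replicate 1) to 0.12, its ratio from -0.29 to 0.01 (without Alb-Cre replicate 1), and Slc25a23 from -0.27 to 0.01 (without Alb-Cre replicate 4). Slc25a40 was -0.01 without Alb-Cre replicate 4, and Slc25a38 was -0.01 without Alb-WT replicate 1.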

Other observations

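Carriers reach the inner membrane through the small Tim chaperones and the Tim22 translocase after the Tom complex of the outer membrane. Of 14 genes of this route tested, 1 was higher in Alb-Cre and none lower, and 4 were higher and none lower without Alb-Cre replicate 4. Of all genes tested, 8.48% were higher and 23.3% lower, and 15.2% and 46.1% without that library. Tomm5, a small Tom subunit, stood at 27.4, 26.0, 23.1 and 18.2 FPKM across Alb-Cre and 16.4, 17.4, 14.5 and 17.1 FPKM across Alb-WT (log2 fold change 0.50, limma adjusted p = 0.0185). The groups did not overlap, with replicate 4 closest to Alb-WT, and the call was lost without Alb-Cre replicate 1 or 2 or Alb-WT replicate 1 or 3 and with the trend on gene length removed.

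Of 19 other mitochondrial transport genes, 4 were higher and 2 lower, and 5 and 3 without Alb-Cre replicate 4. The shares of all genes were again 8.48% higher and 23.3% lower, and 15.2% and 46.1% without that library. Slc8b1, the sodium/calcium exchanger of the inner membrane, was 14.0 ± 2.57 FPKM in Alb-Cre and 23.5 ± 1.85 FPKM in Alb-WT (SD, n = 4), and fell by 0.72 on the log2 scale (limma adjusted p = 0.00389). Sfxn1, a serine transporter, rose by 0.32 (adjusted p = 0.0106) and Smdt1, a subunit of the calcium uniporter, by 0.44 (adjusted p = 0.0215). The call of Smdt1 was lost without Alb-Cre replicate 1 or 3 or Alb-WT replicate 1 or 3. The calcium uniporter pore Mcu and the pyruvate carrier subunits Mpc1 and Mpc2 did not pass.

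The 4 carriers too low to test had few fragments in each library. Slc25a18 had 2 to 21, Slc25a27 had 26 to 60, Slc25a35 had 22 to 56 and Slc25a53 had 12 to 78.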
